A study of Mus musculus with 10 samples.

Results

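Genes of lipid droplets and of fatty acid uptake were followed in mouse lung tumours labelled control or Glut1-KO. The 10 genes were Plin2, Plin3, Dgat1, Dgat2, Pnpla2, Lipe, Mgll, Cd36, Fabp5 and Angptl4, each taken by its symbol from a count table of 39017 genes. Each symbol occurred once, and all 10 genes passed the filter on low counts, as did 15922 genes in all. The tumours were started in C57BL/6 mice by intratracheal Ad5CC10-Cre, an adenovirus whose promoter restricts Cre recombinase to CC10-positive airway cells. Among other alleles, all mice carried p53Fl/Fl, the floxed gene of the tumour suppressor p53. The 5 controls (KP) were labelled heterozygous for the floxed Glut1 allele, although the design text calls them Glut1-WT, and the 5 libraries labelled Glut1-KO (KPG1) were labelled homozygous. Tumours were cut out at 20 weeks and 1 day, dissociated and depleted of CD45-positive immune cells on magnetic beads, so each library is bulk polyadenylated RNA from tumour cells and any other CD45-negative cells. All 5 controls and Glut1-KO replicates 4 and 5 came from males, and Glut1-KO replicates 1 to 3 from females.

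Cells store surplus fatty acids as triglyceride in lipid droplets, which perilipins coat, acyltransferases fill and a cascade of lipases empties. Fatty acids reach the cell through surface translocases and cytosolic binding proteins, or from circulating lipoproteins that lipoprotein lipase cleaves. Many of these genes are textbook targets of PPAR nuclear receptors, and in the lung alveolar type 2 cells use fatty acids to build surfactant lipids.

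The targeted gene did not separate all libraries by label. Slc2a1, which encodes Glut1, had 73.2 to 118 CPM in controls (counts scaled by library size and TMM). It had 60.3, 42.5 and 34.6 CPM in Glut1-KO replicates 1 to 3, and 92.4 and 103 CPM in replicates 4 and 5, inside the control range. The main comparisons below are therefore also given without replicates 4 and 5. Those replicates are also the males of their group and share a number in their deposited names, so sex, Slc2a1 level and any common origin cannot be told apart within the group. Whether counts per gene include transcripts that lack the deleted exons cannot be read from these files. Control replicates 1, 2 and 5 shared such a name number too, as did control replicates 3 and 4. No label says what the number means or that replicates came from separate animals, so p-values measure only the spread between libraries.

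Totals were 35.3 to 49.8 M counts per library (M, mega), so even the lowest gene of the set, Mgll, was read from 107 to 432 counts. The labelled lung epithelial origin was checked with marker genes. The summed level of 6 alveolar type 2 genes was 25803 to 71234 CPM in controls and 48350 to 64263 CPM in libraries labelled Glut1-KO, and the epithelial sum was 3488 to 4530 and 2850 to 6361 CPM. Adipocytes express most of the 10 genes strongly. Of 7 adipocyte markers 6 stayed under 1 CPM in every library, Lep was at 0 counts throughout and Adipoq reached at most 0.148 CPM. The remaining marker, Cidec, reached 8.13 CPM in Glut1-KO replicate 5, where the adipocyte sum was 8.22 CPM, against 0.253 to 2.13 CPM in controls.

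The 250 bases before the RefSeq transcription start were examined for motifs (RefSeq, GRCm38.p6), because PPAR and related receptors bind repeats of AGGTCA. A window was matched for 6 of the 10 genes. The pair shown here were the ones that held AGGTCA, found in both as TGACCT on the printed strand. Capitals mark every match, on either strand, to AGGTCA, to the Sp1 box GGGCGG, to CCAAT, to the hypoxia element core ACGTG and to the TATA box TATAAA. The Plin2 window spans chr4:86670060-86670309 and the Cd36 window chr5:17835897-17836146, both printed 5′ to 3′ on the minus strand, and the Cd36 start lies inside the gene as GENCODE annotates it.
Plin2: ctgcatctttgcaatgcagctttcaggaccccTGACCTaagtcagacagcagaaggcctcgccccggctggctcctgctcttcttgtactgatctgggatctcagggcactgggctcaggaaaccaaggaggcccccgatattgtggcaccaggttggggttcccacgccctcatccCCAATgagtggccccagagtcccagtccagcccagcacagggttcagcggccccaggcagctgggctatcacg
Cd36: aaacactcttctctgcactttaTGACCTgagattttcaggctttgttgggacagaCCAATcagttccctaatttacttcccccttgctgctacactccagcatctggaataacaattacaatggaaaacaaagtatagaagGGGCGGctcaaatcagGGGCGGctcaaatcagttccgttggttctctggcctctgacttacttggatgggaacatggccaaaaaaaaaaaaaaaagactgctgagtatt
The AGGTCA match lay from -218 to -213 in Plin2 and from -228 to -223 in Cd36. It was present in 14% of 32851 windows of all genes. The full element, AGGTCA repeated after a spacer of 1 base, was in 0.0335% of all windows and in no window of the genes described here. CCAAT occurred in both printed windows and in 33.8% of all windows, and GGGCGG occurred in the Cd36 window 2 times and in 32.7% of all windows. GC content was 61.6% for Plin2 and 43.2% for Cd36, against a median of 52.4%. These are matches of letters, and no binding was measured.

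Per length, Cd36 was the most abundant of the genes in controls and Mgll the least. On the scale of CPM per kilobase of the longest principal transcript, controls averaged 278 ± 71.2 for Cd36 (SD, n = 5), 167 ± 138 for Fabp5 and 97.7 ± 16.8 for Plin2. Next came Pnpla2 at 51.5 ± 10.6, Plin3 at 33.7 ± 2.39, Angptl4 at 15.6 ± 2.50 and Dgat1 at 13.03 ± 1.89. The lowest levels were those of Lipe at 7.01 ± 2.25, Dgat2 at 5.64 ± 3.22 and Mgll at 1.10 ± 0.562. The ranges of Cd36, Fabp5 and Plin2 overlapped in that order, as did Pnpla2 with Plin3, Angptl4 with Dgat1, and Lipe with Dgat2. Plin2 lay above Pnpla2, Plin3 above Angptl4, Dgat1 above Lipe and Dgat2 above Mgll in all 5 controls. The places of Fabp5, and of Pnpla2 and Plin3, rest on the length used. The principal transcript of Fabp5 has 987 bases and its merged exons 3567, and with merged exons its level was 46.3 CPM per kilobase, below the 52.5 of Plin2. Merged exons also put Plin3, at 32.5, above Pnpla2, at 30.7.

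**Figure D1:**
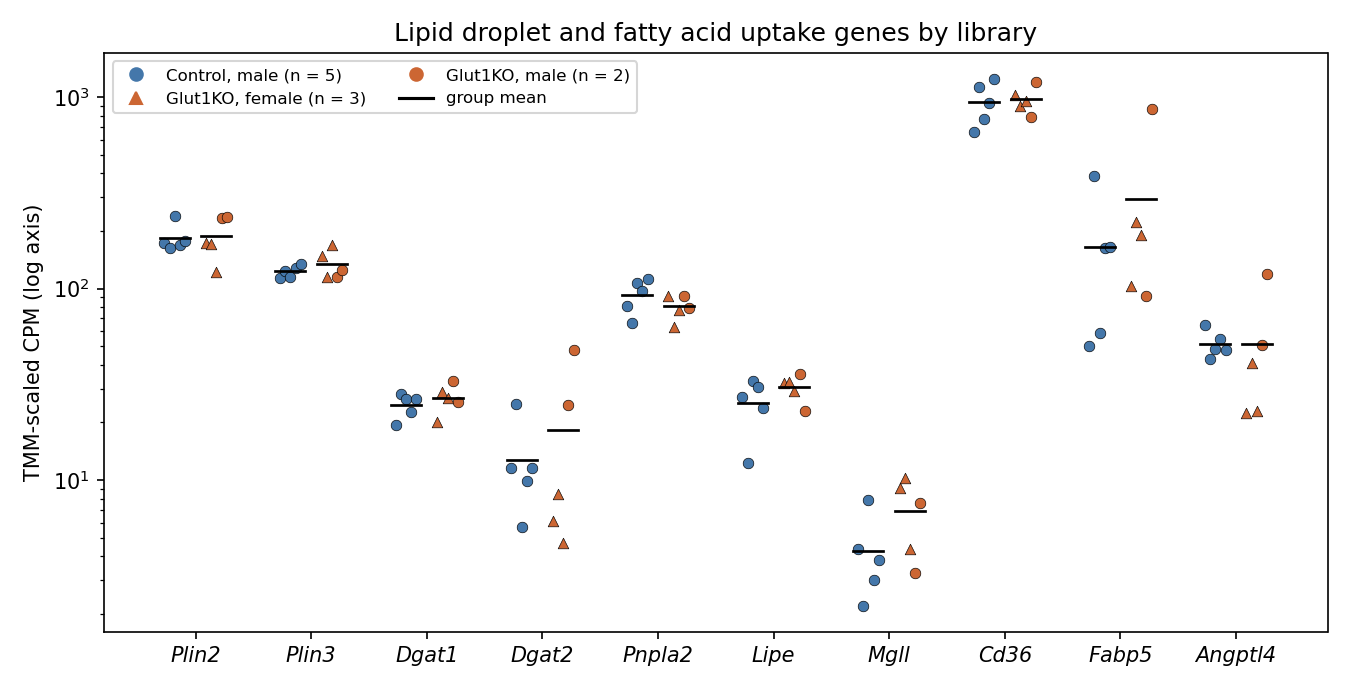
Level of each of the 10 genes in every library, in TMM-scaled CPM on a log axis, with controls in blue, libraries labelled Glut1-KO in orange, females as triangles, males as circles and group means as black bars. The groups overlap for all 10 genes, and the female and male libraries labelled Glut1-KO lie apart for Plin2, Dgat2 and Angptl4.

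The question put to the groups was whether storage and uptake of fatty acids differ between tumours labelled Glut1-KO and controls, as far as transcripts show it. For none of the 10 genes did the difference between the labelled groups pass the test. With limma 0 of 10 genes passed an adjusted p of 0.05, and 0 of 10 had an unadjusted p under 0.05. edgeR's quasi-likelihood test and DESeq2 also called 0 of the 10. Over all genes limma and edgeR called 0% and 7.68% had an unadjusted p under 0.05, while DESeq2 called 1.35%. The groups overlapped for all 10 genes, where 1.85% of all genes had no overlap. Log2 fold changes were above 0 for 7 genes and below 0 for 3, with a median of 0.089, against -0.0049 over all genes, of which 49.3% lay above 0. In bulk RNA, fewer cells of a type and less RNA per cell cannot be told apart.

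Perilipin 2 and perilipin 3 coat droplets. Perilipin 2 protein is commonly used as a measure of droplet load because it is degraded when it is not bound to one. Transcript counts do not show this breakdown of the protein, so droplet load was not measured here. Plin2 (chromosome 4, 86648386 to 86670060, minus strand, GRCm38, as for all positions that follow) had 172, 163, 240, 169 and 178 CPM in control replicates 1 to 5. In Glut1-KO replicates 1 to 5 it had 173, 171, 123, 234 and 238 CPM. Control replicate 3 and Glut1-KO replicates 4 and 5 were the high libraries and Glut1-KO replicate 3 the low one, so each group held high values. Controls averaged 184 ± 31.7 CPM and libraries labelled Glut1-KO 188 ± 48.3 CPM (SD, n = 5 per group). The log2 fold change was -0.00024 (SE 0.19, 95% interval -0.42 to 0.42, limma adjusted p 0.999). Its sign depended on the processing: it was 0.03 with edgeR and DESeq2.

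Plin3 (chromosome 17, 56277476 to 56292873, minus strand) was the steadiest of the 10, with its highest library 1.49 times its lowest. Controls had 114, 124, 115, 128 and 134 CPM, and libraries labelled Glut1-KO 149, 115, 170, 115 and 125 CPM. Only Glut1-KO replicates 1 and 3 lay above every control. The log2 fold change was 0.12 (SE 0.13, 95% interval -0.16 to 0.40, limma adjusted p 0.847). It was -0.03 with sex as a covariate and in males alone, settings that both set the Glut1-KO males against the male controls. Plin2 to Plin3, as a ratio of CPM per kilobase, was 2.54 to 4.05 in controls, 2.25, 2.87 and 1.39 in the female libraries labelled Glut1-KO and 3.93 and 3.67 in the males.

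The last step of triglyceride synthesis is carried out by the unrelated acyltransferases DGAT1 and DGAT2. Dgat1 (chromosome 15, 76502015 to 76511953, minus strand) had 19.4 to 28.3 CPM in controls, with a median of 26.4, and 20.2 to 33.1 CPM in libraries labelled Glut1-KO, with a median of 26.9. Its log2 fold change was 0.11 (SE 0.16, 95% interval -0.24 to 0.46, limma adjusted p 0.885). The highest Dgat1 library was 1.70 times the lowest, whereas for Dgat2 this ratio was 10.2.

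Dgat2 (chromosome 7, 99153658 to 99182719, minus strand) had 11.5, 25.04, 5.71, 9.90 and 11.5 CPM in controls. In Glut1-KO replicates 1 to 3 it had 6.13, 8.46 and 4.67 CPM, and in replicates 4 and 5 it had 24.8 and 47.7 CPM. The female libraries lay at the low end of the controls and the males near or above their high end. Controls averaged 12.7 ± 7.27 CPM and libraries labelled Glut1-KO 18.3 ± 18.3 CPM (SD, n = 5 per group). Limma, which averages log values, gave a log2 fold change of 0.05 (SE 0.64, 95% interval -1.36 to 1.45, adjusted p 0.991), and edgeR and DESeq2, which fit mean counts, gave 0.52 and 0.53 (adjusted p 0.833 and 0.837). Its SE was among the widest of the 10 genes, and changes of over 2-fold in either direction lie inside the interval. Per kilobase, Dgat2 stood at 0.18 to 0.74 of Dgat1 in controls, at 0.25, 0.25 and 0.14 in the female libraries labelled Glut1-KO, and at 0.62 and 1.55 in the males. Dgat2 exceeded Dgat1 on this scale in Glut1-KO replicate 5 alone.

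Triglyceride is broken down in sequence by adipose triglyceride lipase (Pnpla2), hormone-sensitive lipase (Lipe) and monoglyceride lipase (Mgll). Pnpla2 (chromosome 7, 141455198 to 141460743, plus strand) had 80.9, 66.1, 108, 97.1 and 112 CPM in controls and 92.0, 62.9, 77.5, 91.9 and 79.4 CPM in libraries labelled Glut1-KO. No library labelled Glut1-KO lay above the control range, and 1 lay below it. Its log2 fold change was -0.19 (SE 0.17, 95% interval -0.55 to 0.18, limma adjusted p 0.808).

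Lipe (chromosome 7, 25379527 to 25398710, minus strand) had 27.2, 12.2, 33.0, 30.6 and 23.7 CPM in controls and 32.1, 32.7, 29.1, 35.7 and 22.9 CPM in libraries labelled Glut1-KO. Control replicate 2 was the low library. Its log2 fold change was 0.35 (SE 0.26, limma adjusted p 0.773), and it was 0.08 without that library.

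Mgll (chromosome 6, 88724412 to 88828360, plus strand), the last lipase of the cascade, had the smallest p of the 10 genes and still did not pass. It had 4.38, 2.21, 7.85, 3.00 and 3.83 CPM in controls and 9.08, 10.3, 4.38, 3.28 and 7.63 CPM in libraries labelled Glut1-KO. Glut1-KO replicates 1 and 2 lay above every control and the other 3 lay among them. Controls averaged 4.26 ± 2.17 CPM and libraries labelled Glut1-KO 6.93 ± 3.00 CPM (SD, n = 5 per group). The log2 fold change was 0.75 (SE 0.40, 95% interval -0.13 to 1.64). The limma adjusted p was 0.706 and the exact permutation p, 2-sided, was 0.159. Lipe and Mgll share 918 and 167 exonic bases with annotated antisense genes, and the use of strand in counting was not given in the sources used here, so their counts may hold antisense reads. Per kilobase, the ratio of Pnpla2 to Lipe was 5.98 to 10.9 in controls and 5.75, 3.87, 5.34, 5.16 and 6.97 in Glut1-KO replicates 1 to 5.

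Cd36 (chromosome 5, 17781690 to 17888801, minus strand) encodes the surface translocase of long-chain fatty acids and was the most abundant of the set per kilobase in 8 of 10 libraries. Fabp5 exceeded it on that scale in control replicate 2 and Glut1-KO replicate 5, which rests on the short principal transcript of Fabp5. Per kilobase of merged exons, Cd36 averaged 264 CPM in controls and 272 in libraries labelled Glut1-KO, and Fabp5 46.3 and 82.7. For Cd36, controls had 657, 1129, 771, 935 and 1240 CPM and libraries labelled Glut1-KO 1022, 902, 958, 790 and 1204 CPM. All 5 Glut1-KO values lay inside the control range. For Cd36 the log2 fold change was 0.07 (SE 0.19, 95% interval -0.35 to 0.49, limma adjusted p 0.948), and it turned to -0.05 without control replicate 1. Endothelial cells and macrophages also express Cd36. All 10 endothelial markers had log2 fold changes above 0 (median 0.64), as did 49.3% of all genes. Limma, edgeR and DESeq2 called 0 of them (over all genes 0% with limma and edgeR and 1.35% with DESeq2). An unadjusted limma p under 0.05 was found for 1 of them (7.68% of all genes). Their summed levels were 108 to 400 CPM in controls and 191 to 549 CPM in libraries labelled Glut1-KO, with none at 0. The libraries with the lowest and highest endothelial sums, control replicate 2 and Glut1-KO replicate 2, had 1129 and 902 CPM of Cd36. These libraries also differ in label and sex, and the part of endothelial cells in the Cd36 values was not tested.

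Fabp5 (chromosome 3, 10012548 to 10016607, plus strand), a cytosolic carrier of fatty acids, was the most variable gene of the 10, with its highest library 17.3 times its lowest. Controls had 49.9, 387, 58.9, 164 and 165 CPM. Libraries labelled Glut1-KO had 104, 223, 192, 91.5 and 865 CPM. Control replicate 2 and Glut1-KO replicate 5 were the high libraries of their groups. For Fabp5 the log2 fold change was 0.70 (SE 0.68, 95% interval -0.80 to 2.19, limma adjusted p 0.828), and it was 0.19 without Glut1-KO replicate 5 and 1.10 without control replicate 2. Related copies of Fabp5 exist in the mouse genome, and whether reads common to them affect its counts was not tested. Of 12 macrophage markers 10 were tested, 9 had log2 fold changes above 0 (median 0.88) and 8 had an unadjusted limma p under 0.05 (7.68% of all genes). Limma and edgeR called 0 of them and DESeq2 called 3, C1qa, C1qb and Itgax (over all genes 0% with limma and edgeR and 1.35% with DESeq2). The summed level of all 12 was 40.6 to 62.3 CPM in controls and 62.2 to 90.2 CPM in libraries labelled Glut1-KO. Marco and Siglecf stayed under 1 CPM in every library. Glut1-KO replicate 5 had a macrophage sum of 64.2 CPM, near the low end of its group. The summed level of 5 club cell markers was lowest in the high libraries of Fabp5, at 1781 CPM in control replicate 2 (3912 to 10011 CPM in the other controls) and 1163 CPM in Glut1-KO replicate 5 (2020 to 6793 CPM in the others of its label). The summed level of 8 fibroblast markers was highest there, at 370 CPM (94.0 to 309 CPM in the other controls) and 410 CPM (63.5 to 230 CPM). The alveolar type 2 sum was lowest in these libraries too, at 25803 CPM (48354 to 71234 CPM in the other controls) and 48350 CPM (49884 to 64263 CPM). No marker of these lists was at 0 in all libraries, and the part of these cells in the Fabp5 values was not tested.

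Angptl4 (chromosome 17, 33773750 to 33781830, minus strand) encodes a secreted inhibitor of lipoprotein lipase that fasting, fatty acids and low oxygen are known to induce. Controls were close together, at 64.4, 42.9, 48.1, 54.7 and 48.1 CPM. Glut1-KO replicates 1 to 3 had 22.5, 41.0 and 23.0 CPM, and replicates 4 and 5 had 50.6 and 120 CPM. The females lay below every control, replicate 4 inside the control range and replicate 5 above it. The means were 51.6 ± 8.28 CPM in controls and 51.3 ± 40.0 CPM in the other group (SD, n = 5 per group). With limma the log2 fold change was -0.29 (SE 0.39, 95% interval -1.15 to 0.58, adjusted p 0.883). It was -0.0081 with edgeR and -0.0024 with DESeq2. Without Glut1-KO replicate 5 it was -0.67 (limma adjusted p 0.412), without replicate 1 -0.061 and without replicate 3 -0.065.

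**Figure D2:**
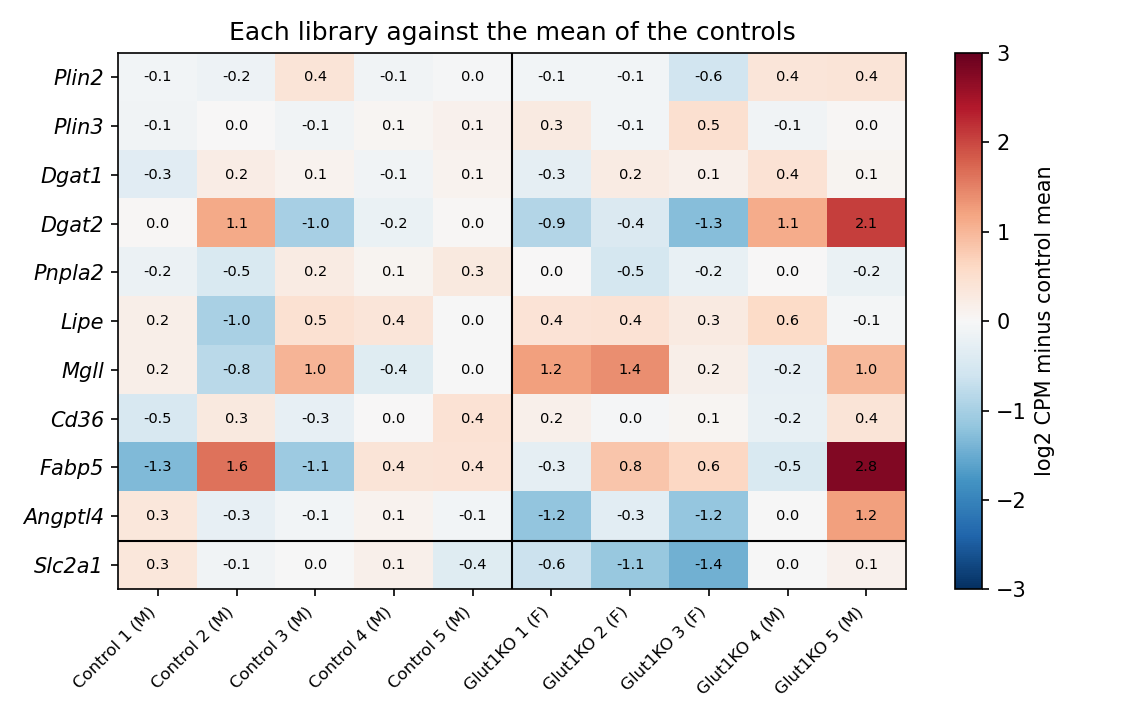
Heat map of log2 CPM in each library minus the mean log2 CPM of the 5 controls, with the sex label in parentheses, red above and blue below the controls, and Slc2a1 in the bottom row. Angptl4 is at -1.18, -0.32 and -1.15 in Glut1-KO replicates 1 to 3 and at -0.02 and 1.23 in replicates 4 and 5, and Slc2a1 is at -0.64, -1.14 and -1.44 against -0.02 and 0.14.

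The libraries labelled Glut1-KO were then split by sex label, which also parts them by Slc2a1 level. Against all 5 controls, the 3 female libraries had 0 of 10 genes past an adjusted p of 0.05 (0.0548% of 16430 genes passed) and 1 with an unadjusted p under 0.05 (13.8% of all genes). That gene was Angptl4, at a mean of 28.8 CPM against 51.6 CPM, a log2 fold change of -0.88 (SE 0.23, 95% interval -1.40 to -0.36) and a limma adjusted p of 0.213. It was the only 1 of the 10 genes without overlap in this comparison, and 5.34% of all genes were lower without overlap. Dgat2 had a log2 fold change of -0.91 (SE 0.49, limma adjusted p 0.435), Mgll 0.95 (SE 0.43, limma adjusted p 0.370) and Plin2 -0.24 (SE 0.17, limma adjusted p 0.550). No control was female, so sex and deletion cannot be told apart here.

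The 2 male libraries labelled Glut1-KO, compared with the 5 male controls, had 0 of 10 genes past an adjusted p of 0.05 (0.00597% of 16762 genes passed) and 1 with an unadjusted p under 0.05 (9.28% of all genes). That gene was Dgat2, with a log2 fold change of 1.58 (SE 0.47, 95% interval 0.49 to 2.68, limma adjusted p 0.457). Angptl4 had 0.62 (SE 0.32, limma adjusted p 0.588), Plin2 0.37 (SE 0.17, limma adjusted p 0.557) and Fabp5 1.15 (SE 1.02, limma adjusted p 0.749). Cd36 was at 0.08 in the males and 0.07 in the females.

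**Figure D3:**
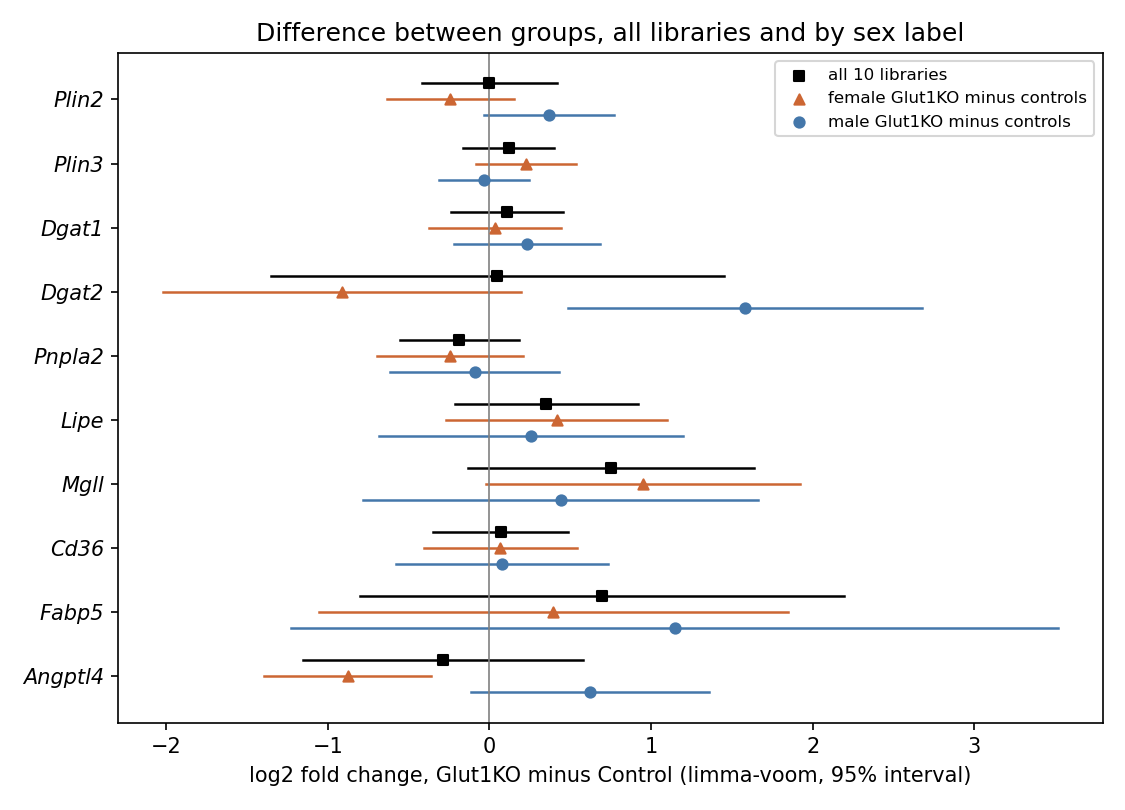
Log2 fold change of each gene against the controls with its 95% interval from limma, for all 10 libraries (black squares), the 3 female libraries labelled Glut1-KO (orange triangles) and the 2 males (blue circles). The female and male values have opposite signs for Plin2, Plin3, Dgat2 and Angptl4, with Dgat2 at -0.91 and 1.58, and lie close together for Cd36 at 0.07 and 0.08.

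Within the group labelled Glut1-KO, 3 of 10 genes had an unadjusted p under 0.05 for females minus males (18.6% of all genes did) and 0 of 10 passed the adjusted threshold (0.0502% of all genes did). The same 3 genes were lower in all females than in both males, as were 20.3% of all genes. With shares this near the background the count says little about these genes as a set, and the values are given as a description. Dgat2 averaged 6.42 CPM in females and 36.2 CPM in males, a log2 difference of -2.49 (SE 0.55, limma adjusted p 0.111). Angptl4 averaged 28.8 and 85.1 CPM, a log2 difference of -1.50 (SE 0.37, limma adjusted p 0.120). Plin2 averaged 156 and 236 CPM, a log2 difference of -0.62 (SE 0.20, limma adjusted p 0.175). Slc2a1 itself had a log2 difference of -1.13 (SE 0.25, limma adjusted p 0.111) in this fit. The parts played by sex, Slc2a1 level and shared name number were not tested.

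Other genes of the same pathways were read from 6 lists, of which 74 genes were tested. With limma and edgeR 0 of the 74 passed the threshold, and 7 had an unadjusted limma p under 0.05, a share close to the 7.68% of all genes. Among droplet coat and assembly genes 10 had log2 fold changes above 0 and 3 below (median 0.15), and 0 had an unadjusted p under 0.05. Hsd17b11 and Rab18, the most abundant of them, were at 0.04 and 0.15. Cidea, which helps droplets fuse, had the smallest p of the list with a log2 fold change of -1.42 (SE 0.66, limma adjusted p 0.665), and Fitm2, which helps droplets bud, was at 0.26. Against controls Cidea was at -2.20 in the females labelled Glut1-KO (SE 0.68, limma adjusted p 0.253) and at -0.23 in the males (limma adjusted p 0.944).

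Among genes of triglyceride and sterol ester synthesis 10 had log2 fold changes above 0 and 3 below (median 0.17). Mogat1, a monoacylglycerol acyltransferase, had 0.962, 2.19, 0.766, 0.865 and 1.62 CPM in controls and 2.85, 16.1, 5.46, 1.13 and 5.00 CPM in libraries labelled Glut1-KO. Of the 5 Glut1-KO libraries 4 lay above every control, and replicate 4 lay among them. Its log2 fold change was 1.88 with limma (SE 0.66, adjusted p 0.548), and DESeq2 alone placed it past the threshold (2.26, SE 0.60, adjusted p 0.0208), the only gene of the 74 that limma, edgeR or DESeq2 called on all libraries. DESeq2 called 1.35% of all genes, the same share as 1 in 74. Agpat2, Soat1 and Lpin2 were at 0.23, 0.43 and 0.19 with limma adjusted p-values of 0.665, 0.709 and 0.841. In the females against controls Soat1 was at 0.78 (SE 0.19, limma adjusted p 0.207) and Lpin2 at 0.39 (SE 0.18, limma adjusted p 0.382). In the males both were at -0.08.

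Among lipolysis genes 5 lay above 0 and 5 below (median -0.0028). Of these, 3 had an unadjusted limma p under 0.05 (7.68% of all genes), namely Pde3b, G0s2 and Lipa, against 0 to 2 in each of the other lists. Pde3b, the phosphodiesterase through which insulin restrains lipolysis, was at -1.01 (SE 0.38, limma adjusted p 0.574), and G0s2, an inhibitor of the lipase that Pnpla2 encodes, at 0.80 (SE 0.31, limma adjusted p 0.599). Against controls Pde3b was at -1.45 in the females (SE 0.42, limma adjusted p 0.241) and at -0.30 in the males (SE 0.42, limma adjusted p 0.847). Lipa, the lysosomal acid lipase, was at 0.44 (SE 0.18, limma adjusted p 0.612), and Ces1d, a carboxylesterase, at 0.60 (limma adjusted p 0.745).

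Among genes of fatty acid uptake, binding and activation 10 lay above 0 and 3 below (median 0.11). The acyl-CoA synthetases Acsl4 and Acsl5 were the most abundant, at 704 ± 123 and 579 ± 162 CPM in controls (SD, n = 5), with log2 fold changes of 0.11 and 0.17. Fabp4, the fatty acid carrier of adipocytes, macrophages and endothelium, had 1.87, 3.68, 9.21, 2.11 and 2.75 CPM in controls, 6.82, 6.35 and 2.87 CPM in the females labelled Glut1-KO and 22.8 and 73.0 CPM in the males. Only those males lay above every control, and over all libraries its log2 fold change was 1.79 (SE 0.93, limma adjusted p 0.688). DESeq2 gave Fabp4 2.51 (SE 0.74, adjusted p 0.0519). With limma it was at 0.60 in the females against controls (adjusted p 0.620) and at 3.68 in the males (adjusted p 0.274). Acsl6 was at -1.12 (limma adjusted p 0.713).

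In the lipoprotein lipase system 7 genes lay above 0 and 3 below, with the highest median of the 6 lists, 0.39. Lmf1, a chaperone of the lipase, was at 0.42 (SE 0.17, limma adjusted p 0.621), and Gpihbp1, its endothelial anchor, at 0.73 (SE 0.35, limma adjusted p 0.668), beside the endothelial sums given above. The lipoprotein receptor gene Vldlr was at 0.67 (limma adjusted p 0.677). Among other PPAR target genes 10 lay above 0 and 5 below (median 0.16). Acaa2, the thiolase of mitochondrial fatty acid oxidation, was at 0.41 (SE 0.13, limma adjusted p 0.449) with 4 of 5 libraries labelled Glut1-KO above every control, and Hadha was at 0.25 (SE 0.11, limma adjusted p 0.635).

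**Figure D4:**
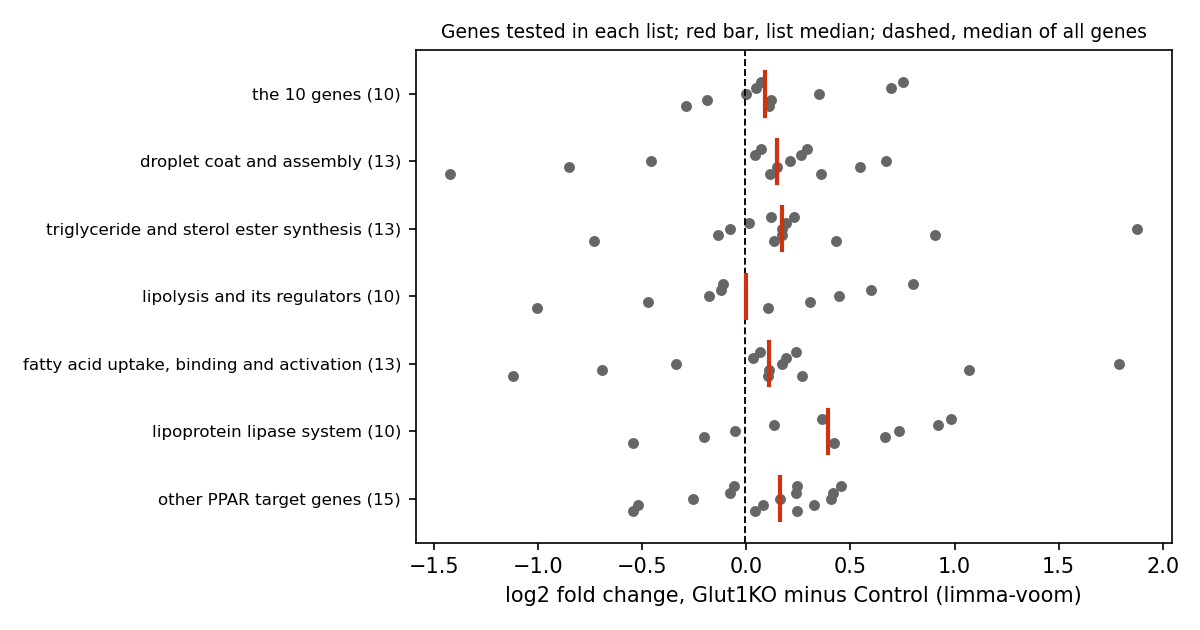
Log2 fold change of every tested gene in the set of 10 and in the 6 pathway lists (number tested in parentheses), as points with the list median as a red bar and the median of all genes, -0.0049, as a dashed line. List medians lie between -0.0028 for lipolysis and 0.39 for the lipoprotein lipase system, and no gene passed the limma threshold.

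Hilpda, chosen after its values were seen, encodes a droplet protein that inhibits the lipase of Pnpla2 and is known to respond to low oxygen and to fatty acids. It had 49.2, 25.8, 40.2, 23.3 and 21.6 CPM in controls, 12.5, 13.8 and 12.1 CPM in the females labelled Glut1-KO and 53.7 and 51.2 CPM in the males. The females lay below every control and the males above. Against controls, 5.34% of all genes were lower without overlap in these females. Within the group, 20.3% of all genes were lower in all females than in both males. The share for the males against controls was not determined. The log2 fold change was -1.23 for females against controls (SE 0.32, limma adjusted p 0.217) and 0.79 for males (SE 0.32, limma adjusted p 0.523), and females minus males within the group gave -2.03 (SE 0.35, limma adjusted p 0.0906). Over all libraries it was -0.46 (limma adjusted p 0.838).

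RNA of leukocytes was present after the depletion of CD45-positive cells. Ptprc, the gene of CD45, was at 2.30 to 3.26 CPM in controls and 5.05 to 10.1 CPM in libraries labelled Glut1-KO, ranges that did not overlap (limma adjusted p 0.230). DESeq2 called Ptprc (log2 fold change 1.52, adjusted p 1.96e-06), whereas edgeR did not (adjusted p 0.187). All 8 pan-leukocyte genes had log2 fold changes above 0 (median 0.77). Of these, 4 had no overlap between the groups (1.85% of all genes), and DESeq2 called 4 (1.35% of all genes), namely Ptprc, Coro1a, Laptm5 and Tyrobp, whereas limma and edgeR called 0. None was at 0, and their summed level was 307 to 451 CPM in controls and 324 to 591 CPM in libraries labelled Glut1-KO. The part of leukocytes, macrophages and endothelium in the values of Cd36, Fabp5, Fabp4, Gpihbp1, Lipa and Mgll was not tested.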

How the data were processed

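Sequencing of polyadenylated RNA gave 10 libraries, 5 per group by their labels. Per the study's methods, the authors made stranded libraries, trimmed them and aligned single-end reads to mm10 with HISAT2; featureCounts 1.4.4 is named in the submitters' processing notes, and its strand setting and annotation were not given in the sources used here. The deposited count table holds raw counts of reads per gene; a deposited table of log2 values was not used. The 10 genes and the lists were chosen with earlier results of these data known. An allele and some genes that the naming rule selects are not reported here.

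Counts were filtered with edgeR 4.0.16 (filterByExpr, minimum count 10, minimum total 15), TMM-scaled, passed to voom (prior count 0.5) and modelled in limma 3.58.1 (R 4.3.3), the group being the only term. P-values were adjusted by Benjamini-Hochberg over 15922 genes, with a threshold of 0.05. The 2-sided exact permutation test ran over 252 assignments (smallest p 0.00794). Named genes were the 10 genes, Slc2a1, Ptprc and, of each list, the 2 with the smallest p and the 2 with the highest mean CPM. The fit was tested on simulated data. Alternatives were edgeR's quasi-likelihood test, DESeq2 1.42.0, other scalings and filters, a replicate block, sex as a covariate, male libraries only, female libraries labelled Glut1-KO against all (male) controls, libraries grouped by name number, and each library left out. The comparison of females with males within the group (the sex term of the fit with sex as a covariate) and the principal-transcript length were chosen after seeing the data. Positions and lengths came from GENCODE M21 on GRCm38, which held 96.6% of the gene identifiers. Totals were 35.3 to 49.8 M counts per library.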

Additional observations from a re-analysis of the deposited data

Results flagged for a closer look

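In each group of 5 libraries, the gap between the highest or lowest value and its nearest neighbour was compared with the whole range of the group (limit 0.71). Of 24 groups of values 3 passed the limit. Chance gives about 1 in 20 for normally distributed values. The limit was applied to CPM rather than to log values, so this rate may not hold and an excess cannot be read from the count. Plin2 stood at 240 CPM in control replicate 3, against 163 to 178 CPM in the other controls. Fabp5 stood at 865 CPM in Glut1-KO replicate 5, where the other 4 libraries with its label had 91.5 to 223 CPM. Angptl4 stood at 120 CPM in the same library, where the others had 22.5 to 50.6 CPM.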

How the results depend on the processing

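Under all 22 alternatives 0 of the 10 genes passed the threshold, and the smallest adjusted p of any was 0.213, for Angptl4 in females against controls. Pnpla2, Lipe, Mgll, Dgat1 and Fabp5 kept their direction in all 22. Plin2, whose difference was near 0, turned to 0.025 with edgeR, 0.030 with DESeq2, 0.0068 with upper quartile scaling, 0.0086 with a mean of at least 1 CPM, and 0.37 with sex as a covariate and 0.37 in males only. Plin3 turned to -0.033 and -0.034 and Angptl4 to 0.62 and 0.62 in the latter pair. All controls were male, so in both settings the difference rests on Glut1-KO replicates 4 and 5, whose Slc2a1 lay inside the control range. Near-equal values in this pair were therefore fixed by the design. Dgat2 turned to -0.91 in females against controls and to -0.083 with counts summed by name number. Leaving out single libraries gave Plin2 -0.091 to 0.14, Dgat2 -0.47 to 0.42 and Cd36 -0.054 to 0.18. Over all genes, limma called 0, edgeR 0, DESeq2 215 (1.35%), limma with sex as a covariate 3, males only 1, females against controls 9, summed counts 2, and leaving out a library 0 to 1 (1 without control replicate 3). DESeq2 called 1 gene of the pathway lists, Mogat1, and in females against controls 1 of the 10 genes, Angptl4, lay lower with no overlap, as did 5.34% of all genes. Control and Glut1-KO libraries with the same replicate number in their titles did not deviate together (correlations -0.13 to 0.20). This check did not examine the number in the deposited names. The replicate block called 0 genes and put Mgll at 0.73 and Dgat2 at 0.34.

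With 5 libraries a group, the intervals of Dgat2, Fabp5, Mgll and Angptl4 hold changes of over 2-fold. That of Lipe, at log2 values of -0.22 to 0.92, comes near to this. The bounds for Plin2, Plin3, Pnpla2, Dgat1 and Cd36 are narrower. The p-values treat libraries with a shared name number as independent, and the estimated correlation of such libraries was 0.07.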

Other observations

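Glut1-KO replicate 5 had the highest level of several lipid genes at once, chosen after their values were seen. Cidec, a droplet fusion protein of adipocytes and fatty liver, reached 8.13 CPM. Controls had 0.228 to 1.93 CPM and the other 4 libraries labelled Glut1-KO 0.135 to 1.07 CPM. Apoc2, the activator of lipoprotein lipase, stood at 101 CPM, against 3.29 to 15.2 CPM in controls, with replicate 1 of its group at 52.0 CPM. Lpl itself stood at 24.03 CPM, against 3.16 to 11.7 CPM in controls, and Glut1-KO replicates 1 and 2 also lay above every control at 16.1 and 14.4 CPM. Fabp4, Fabp5, Dgat2 and Angptl4 had their highest values in that library too. Plin2, Plin3, Dgat1, Pnpla2, Lipe, Mgll and Cd36 had theirs in other libraries. Cidec is itself on the adipocyte marker list, the other 6 markers of which stayed under 1 CPM in every library. Glut1-KO replicate 5 also had the lowest club cell sum (1163 CPM) and the highest fibroblast sum (410 CPM) of all libraries. Its alveolar type 2 sum was the lowest of its group (48350 CPM), and the part of other cells in these values was not tested.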
